A study of Mus musculus with 24 samples.

Results

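The 12 libraries described here compare RNA bound to tagged ribosomes with RNA of the whole dissected tissue in mouse embryos that carried 1 working allele of Fgf20. They are 12 of the 24 libraries of the series and comprise all 8 TRAP libraries and all 4 pre-TRAP libraries labelled heterozygous (Fgf20+/-). TRAP, translating ribosome affinity purification, recovers RNA through a ribosomal protein fused to a fluorescent tag, here L10a-eGFP, which was expressed in the lineage marked by Fgf20-Cre and pulled down with an antibody against GFP. Pre-TRAP libraries are read here as the RNA before that purification, although the labels give both kinds of library the same extraction text. All embryos were of the strain C57BL/6J x 129X1/SvJ, were taken at embryonic day 14.5 and had the ventral otocyst dissected, the lower part of the ear vesicle that holds the cochlea. Each library pooled 3 to 7 embryos of 1 genotype, and the libraries came from 2 experiments, each with 4 TRAP and 2 pre-TRAP libraries of this genotype. Experiment 1 gave TRAP libraries 5, 9, 12 and 15 and pre-TRAP libraries 19 and 21. Experiment 2 gave TRAP libraries 1, 3, 7 and 11 and pre-TRAP libraries 17 and 23. The labels do not say how the null allele was made, and no wild-type libraries were analysed here, so every value below is for heterozygotes. The remaining 12 libraries come from Fgf20-/- embryos (8 TRAP, 4 pre-TRAP) and are used to ask whether the difference between TRAP and pre-TRAP RNA depends on genotype and in 1 alternative fit of all 24 libraries.

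At this stage the floor of the cochlear duct contains the prosensory domain, a strip of Sox2-expressing progenitors from which hair cells, the mechanosensory cells, and supporting cells arise. Fgf20 is a secreted growth factor made by these progenitors, and Atoh1 is the transcription factor that starts hair cell differentiation. Around the duct lie neurons of the spiral ganglion with their glia, the roof of the duct, periotic mesenchyme that forms the cartilage capsule, and vessels with blood cells. TRAP recovers RNA on the cytosolic ribosomes of tagged cells, and RNA kept in the nucleus or translated inside mitochondria is not on those ribosomes.

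Libraries held 30700000 to 50600000 counts, and the first principal component of log2 CPM (38.5% of the variance) separated all 8 TRAP from all 4 pre-TRAP libraries. The second component (27.5%) separated the experiments. TRAP libraries 3 and 5 stood apart by their mesenchyme and cartilage RNA: the mean log2 CPM of 18 mesenchyme markers was 3.67 and 3.76 in these libraries and between 2.18 and 3.21 in the other 6 TRAP libraries, and that of 14 cartilage markers was 5.68 and 6.02 against 4.03 to 4.54. List counts that change by over 1.5 times without them, list medians that move by over 0.5 and named genes whose call changes are given with and without them.

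Of 23201 genes tested across the 12 libraries, 4041 (17.4%) were higher and 5209 (22.5%) lower in TRAP than in pre-TRAP RNA at an adjusted p under 0.05 (edgeR quasi-likelihood test with experiment as a covariate, Benjamini-Hochberg adjustment over all genes). At least 2-fold higher were 2124 (9.15%) and at least 2-fold lower 3260 (14.1%). For 2040 genes (8.79%) every TRAP library lay above every pre-TRAP library, and for 3087 (13.3%) every TRAP library lay below. These shares are the background for each gene group below, and the median log2 fold change over all genes tested was -0.04. Levels are CPM, counts scaled to the size of the library, fold changes are log2 of TRAP over pre-TRAP with their standard error (SE, written after ±, from 8 TRAP against 4 pre-TRAP libraries unless some are said to be left out), and 4 pre-TRAP values are always given in the order of libraries 17, 19, 21 and 23. In such bulk libraries, a smaller or larger share of cells of a type and less or more RNA per cell cannot be told apart. No label says that libraries of a group came from separate litters, so p-values measure the spread between these pooled samples.

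Fgf20 itself, the gene after which the Cre driver is named, was enriched on tagged ribosomes. It lay between 3.11 and 5.94 CPM in TRAP (median 4.02) and at 0.822, 0.626, 0.384 and 1.73 CPM in pre-TRAP libraries. Every TRAP library was above every pre-TRAP library, and the log2 fold change was 2.32 ± 0.32, adjusted p = 3.11e-05. Experiment 1 alone gave 2.95 and experiment 2 alone 1.82, with the highest pre-TRAP value in library 23 of experiment 2, and the difference between the experiments did not pass its test (interaction adjusted p = 1, edgeR). Counts come from both alleles and the labels do not say how the null allele was built, so these values count whatever Fgf20 transcript was left. Fgf20 RNA was also enriched in Fgf20-/- libraries, at 3.22 ± 0.40, adjusted p = 2.55e-07 (edgeR fit of all 24 libraries). Heterozygotes stood at 2.25 in that fit, and the difference between genotypes (0.97 ± 0.49) did not pass its test. The enrichment is therefore not assigned to the working allele.

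The 15 largest rises among well expressed protein-coding genes included transcription factors and neuronal and hair cell genes. Nhlh1, a basic helix-loop-helix factor of newly born neurons and hair cells, lay between 27.3 and 53.9 CPM in TRAP (median 34.9) and at 2.64, 3.13, 2.21 and 1.70 CPM in pre-TRAP libraries. The log2 fold change (3.98 ± 0.27, adjusted p = 3.72e-08) was the largest of the named rises. Msc, another factor of the helix-loop-helix class, lay between 22.1 and 46.8 CPM in TRAP (median 26.6) and at 3.01, 1.99, 2.35 and 2.15 CPM in pre-TRAP libraries, a log2 fold change of 3.60 ± 0.24, adjusted p = 3.27e-08. Shox2, a homeodomain factor, lay between 53.1 and 144 CPM in TRAP (median 96.6) and at 12.7, 12.5, 6.53 and 7.79 CPM in pre-TRAP libraries, a log2 fold change of 3.29 ± 0.32, adjusted p = 1.09e-06. The rises and falls named here were chosen for a large change, 1 sign in both experiments and no overlap between TRAP and pre-TRAP libraries, so their separation is a description. For these genes the lowest TRAP library was several times the highest pre-TRAP library. Fgf5, a secreted FGF ligand, lay between 3.81 and 8.36 CPM in TRAP (median 4.93) and at 0.255, 0.313, 0.600 and 0.595 CPM in pre-TRAP libraries, a log2 fold change of 3.55 ± 0.31, adjusted p = 3.48e-07. Lhfpl5, a component of the hair cell transduction channel complex, lay between 2.75 and 7.10 CPM in TRAP (median 4.91) and at 0.425, 0.427, 0.697 and 0.510 CPM in pre-TRAP libraries (3.27 ± 0.31, adjusted p = 8.6e-07). Stmn3, a neuronal microtubule regulator, lay between 286 and 513 CPM in TRAP (median 458) and at 45.4, 54.3, 41.5 and 40.1 CPM in pre-TRAP libraries (3.29 ± 0.18, adjusted p = 5.51e-09). The other rises were Cdhr1 (3.64), Uts2b (3.58), Ccer2 (3.54), Smim18 (3.45), Tagln3 (3.34), Ccdc184 (3.30), Fbll1 (3.25), Scg5 (3.24) and Ppp1r17 (3.24), log2 fold changes with adjusted p between 4.49e-09 and 8.75e-06. Uts2b encodes a urotensin peptide and Scg5 a chaperone of secretory granules.

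Proneural factors of the Atoh1 and Neurod1 class bind short E-box motifs, and the promoters of rising genes are shown with the 2 motifs searched, CAGCTG and CAGATG (either strand, 250 bases before the annotated start). RefSeq promoters (GRCm38.p6) were matched for 12 of the 15 rises, and 4 held a match: Nhlh1 at chr1:172057597-172057846 (minus strand), Ccer2 at chr7:28755924-28756173 (plus strand), Stmn3 at chr2:181314501-181314750 (minus strand) and Lhfpl5 at chr17:28575469-28575718 (plus strand). Capitals mark the motif.
Nhlh1: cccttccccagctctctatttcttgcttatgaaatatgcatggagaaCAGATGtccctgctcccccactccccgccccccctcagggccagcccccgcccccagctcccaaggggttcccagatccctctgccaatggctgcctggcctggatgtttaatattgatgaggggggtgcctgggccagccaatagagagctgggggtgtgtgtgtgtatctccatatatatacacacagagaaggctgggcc
Ccer2: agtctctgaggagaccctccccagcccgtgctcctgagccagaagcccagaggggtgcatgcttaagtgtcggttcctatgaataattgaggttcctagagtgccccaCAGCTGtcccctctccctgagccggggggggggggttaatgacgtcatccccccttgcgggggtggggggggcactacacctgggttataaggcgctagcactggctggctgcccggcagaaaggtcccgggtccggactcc
Stmn3: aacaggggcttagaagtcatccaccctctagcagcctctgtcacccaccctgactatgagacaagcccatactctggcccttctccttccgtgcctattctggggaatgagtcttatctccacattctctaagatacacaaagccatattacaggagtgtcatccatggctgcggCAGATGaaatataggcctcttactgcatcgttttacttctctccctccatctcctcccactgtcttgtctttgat
Lhfpl5: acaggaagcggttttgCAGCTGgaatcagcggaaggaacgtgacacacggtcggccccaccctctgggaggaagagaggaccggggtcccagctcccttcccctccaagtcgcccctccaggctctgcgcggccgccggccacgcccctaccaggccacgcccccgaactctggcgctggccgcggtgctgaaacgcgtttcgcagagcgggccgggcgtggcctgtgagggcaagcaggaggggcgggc
A match of either motif was present in 25.5% of all 32851 promoters in the table, in 21.7% of the 16328 promoters of genes tested, in 24.6% of promoters of genes called at least 2-fold higher and in 25.3% of those called at least 2-fold lower. In the neuron list below it was present in 8 of 18 promoters (44.4%), which belong to 13 genes. A match is a string of letters and shows no binding.

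The 15 largest falls included genes of blood and immune cells. Hbb-bs, an adult beta globin, lay between 75.1 and 197 CPM in TRAP (median 111) and at 1479.7, 1249, 2658 and 2003 CPM in pre-TRAP libraries, a log2 fold change of -3.91 ± 0.25, adjusted p = 2.07e-08. Hba-a1, an alpha globin, lay between 136 and 349 CPM in TRAP (median 259) and at 2082, 2045, 4040.4 and 2883 CPM in pre-TRAP libraries, a log2 fold change of -3.46 ± 0.24, adjusted p = 5.09e-08. Each globin was high in all 4 pre-TRAP libraries and at least several times lower in all TRAP libraries, with its highest pre-TRAP value in library 21. Reads of Hba-a1 and Hba-a2 (-3.47), of Hbb-bs and Hbb-bt (-3.89) and of Stfa1 (-4.30), a member of a cluster of similar genes, could be shared with near-identical copies, so single values are uncertain. Alas2, the first enzyme of heme synthesis in red cells, lay between 0.397 and 1.80 CPM in TRAP (median 1.04) and at 7.23, 5.83, 18.2 and 13.6 CPM in pre-TRAP libraries (-3.56 ± 0.38, adjusted p = 2.6e-06). Laptm5, a lysosomal protein of blood cells, lay between 0.514 and 2.82 CPM in TRAP (median 1.16) and at 15.5, 17.9, 21.7 and 20.0 CPM in pre-TRAP libraries (-3.84 ± 0.29, adjusted p = 1.1e-07). For both genes the pre-TRAP levels were highest in library 21. Cavin1, a coat protein of caveolae, lay between 10.1 and 29.8 CPM in TRAP (median 14.4) and at 124, 186, 423 and 132 CPM in pre-TRAP libraries (-3.66 ± 0.31, adjusted p = 3.26e-07). The remaining falls were Arl5c (-3.90), Gmfg (-3.64), Spaca6 (-3.62), Gimap6 (-3.51), Car3 (-3.50), Arhgdib (-3.36) and Rtl3 (-3.34). The 15 rises, the 15 falls and Fgf20 passed the test in every alternative analysis that tested them. The rises and falls were chosen for large, separate changes in these same libraries, so their passing is a description and no separate support.

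**Figure D1:**
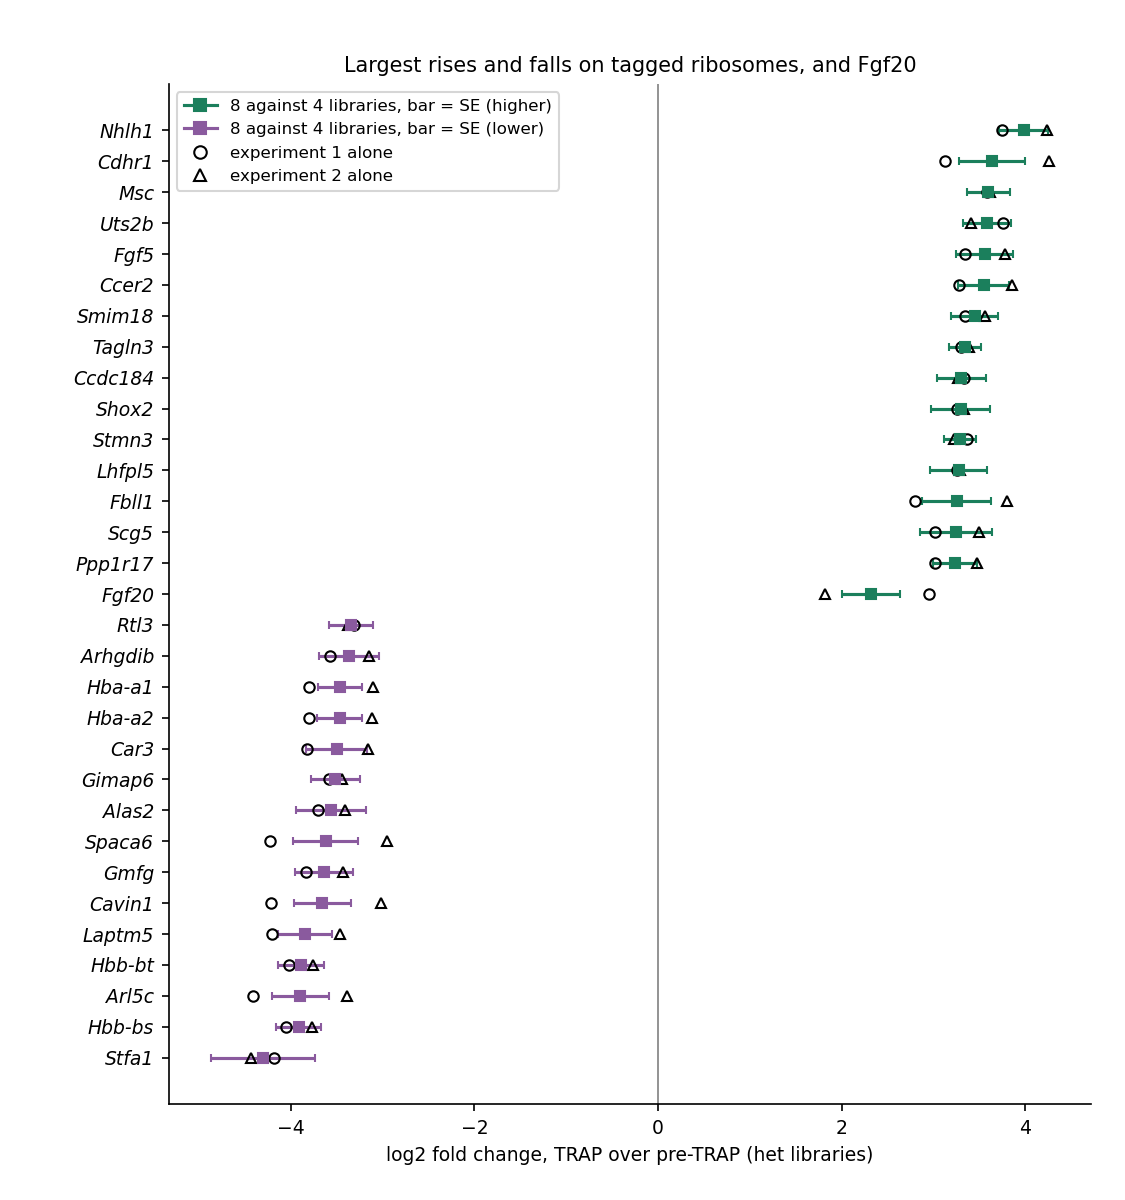
Log2 fold change (TRAP over pre-TRAP) of the 15 largest rises, the 15 largest falls and Fgf20. Squares are the estimate over 8 against 4 libraries with SE bars, open circles experiment 1 alone and open triangles experiment 2 alone. Rises run from 3.24 (Ppp1r17) to 3.98 (Nhlh1), falls from -3.34 (Rtl3) to -4.30 (Stfa1), and Fgf20 stands at 2.32.

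Prosensory genes were enriched on tagged ribosomes: 14 of the 18 listed genes were higher and none lower, with a median log2 fold change of 1.30. In 11 of the 18 every TRAP library lay above every pre-TRAP library. Sox2, the factor that defines the domain, lay between 42.5 and 89.5 CPM in TRAP (median 50.6) and at 15.3, 11.4, 5.60 and 8.16 CPM in pre-TRAP libraries. Its log2 fold change was 2.51 ± 0.28, adjusted p = 3.55e-06, and the groups did not overlap. Isl1, a LIM-homeodomain factor of the prosensory domain that is also expressed in ganglion neurons, lay between 430.0 and 627 CPM in TRAP (median 500.0) and at 77.9, 89.9, 90.3 and 69.95 CPM in pre-TRAP libraries (2.63 ± 0.16, adjusted p = 1.36e-08). Gata3, needed for prosensory development, lay between 401 and 615 CPM in TRAP (median 518) and at 189, 207, 144 and 189.7 CPM in pre-TRAP libraries (1.45 ± 0.17, adjusted p = 5.34e-06). In both, the lowest TRAP library was above the highest pre-TRAP library. Jag1, a Notch ligand of the prosensory domain, was higher (0.72 ± 0.18, adjusted p = 0.00446), but its TRAP range of 33.6 to 67.0 CPM overlapped the highest pre-TRAP value of 37.1 CPM in library 19. Also higher were Hey2 (1.53), Prox1 (1.36), Mycn (1.34) and Eya1 (1.09). Hes1 (-0.10 ± 0.18, adjusted p = 0.701), a Notch effector, and Lgr5 (0.25 ± 0.18, adjusted p = 0.307), a Wnt co-receptor, did not pass the test. Hes5 was close to the detection limit in both groups, at most 0.366 CPM.

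Of 24 hair cell genes 21 were higher and none lower, with a median log2 fold change of 2.06. Atoh1 lay between 5.09 and 8.41 CPM in TRAP (median 5.62) and at 1.56, 0.996, 0.697 and 1.16 CPM in pre-TRAP libraries. Its log2 fold change was 2.52 ± 0.24, adjusted p = 7.52e-07, with all TRAP libraries above all pre-TRAP libraries. Pou4f3, a factor that acts after Atoh1 and keeps hair cells alive, lay between 10.8 and 25.3 CPM in TRAP (median 15.0) and at 1.93, 2.50, 1.87 and 2.01 CPM in pre-TRAP libraries (2.97 ± 0.27, adjusted p = 6.24e-07). Insm1, a zinc-finger factor of outer hair cells and of new neurons, lay between 6.31 and 24.8 CPM in TRAP (median 14.1) and at 3.20, 1.62, 0.889 and 0.964 CPM in pre-TRAP libraries (3.21 ± 0.43, adjusted p = 2.48e-05). Its pre-TRAP level was highest in library 17 but still below every TRAP library. Grxcr1, which acts in stereocilia growth, lay between 12.9 and 27.2 CPM in TRAP (median 19.8) and at 2.27, 2.39, 3.65 and 2.64 CPM in pre-TRAP libraries (2.82 ± 0.20, adjusted p = 5.09e-08). Espn, an actin bundler of the hair bundle, lay between 3.49 and 9.00 CPM in TRAP (median 4.64) and at 1.36, 1.11, 0.552 and 0.680 CPM in pre-TRAP libraries (2.62 ± 0.30, adjusted p = 4.77e-06). Gfi1 (2.09) and Lhx3 (3.36), hair cell transcription factors, were higher at levels of at most 1.70 and 2.21 CPM, with Lhx3 at a log2 fold change of 4.98, adjusted p = 7.17e-06, without pre-TRAP library 23. The unconventional myosins Myo7a (-0.10 ± 0.19, adjusted p = 0.717) and Myo6 (-0.05 ± 0.18, adjusted p = 0.839) and the annexin Anxa4 (-0.29 ± 0.22, adjusted p = 0.322) did not pass the test, and their TRAP and pre-TRAP ranges overlapped. Several genes of this list, Nhlh1 and Insm1 among them, are also expressed by neurons, whose markers were higher too, as given below, and the part of neurons in these values was not tested.

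Among 28 genes of the hair bundle and of inherited deafness 24 were tested, of which 13 were higher and none lower (1 lower without library 3 or without 3 and 5), with a median of 1.07. Smpx, a small protein encoded by an X-linked deafness gene, lay between 12.1 and 30.6 CPM in TRAP (median 16.3) and at 1.30, 2.22, 3.36 and 1.93 CPM in pre-TRAP libraries, a log2 fold change of 3.06 ± 0.27, adjusted p = 4.12e-07. Pcdh15, a cadherin of the tip link, lay between 5.63 and 11.0 CPM in TRAP (median 9.25) and at 2.75, 2.99, 2.43 and 2.52 CPM in pre-TRAP libraries (1.72 ± 0.22, adjusted p = 1.26e-05). Clrn1, a membrane protein mutated in a form of Usher syndrome, lay between 13.6 and 23.1 CPM in TRAP (median 17.3) and at 4.20, 5.12, 5.93 and 3.60 CPM in pre-TRAP libraries (1.94 ± 0.16, adjusted p = 3.14e-07). None of the 3 overlapped between groups. The list shares Myo7a, Espn, Grxcr1, Otof and Cib2 with the hair cell list.

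Supporting cell genes split: of 15, 6 were higher and 5 lower, and the median was 0.06 (-0.03 to 0.33 with 1 library left out). S100a1, a calcium-binding protein, lay between 201 and 324 CPM in TRAP (median 268) and at 48.9, 63.1, 73.8 and 46.9 CPM in pre-TRAP libraries (2.21 ± 0.16, adjusted p = 8.87e-08). Gjb2, the gap junction protein connexin 26, lay between 37.9 and 96.6 CPM in TRAP (median 61.3) and at 21.8, 21.4, 16.0 and 23.3 CPM in pre-TRAP libraries (1.64 ± 0.22, adjusted p = 2.85e-05). The groups were apart in both. Among those lower, Fgfr3, the receptor of pillar and Deiters cell precursors, lay between 7.44 and 18.5 CPM in TRAP (median 9.88) and at 41.1, 47.7, 41.6 and 26.7 CPM in pre-TRAP libraries (-1.71 ± 0.24, adjusted p = 3.39e-05). Fabp7, a fatty acid binder that glia also express, lay between 6.10 and 25.5 CPM in TRAP (median 12.0) and at 67.0, 89.3, 127 and 92.4 CPM in pre-TRAP libraries (-2.87 ± 0.26, adjusted p = 5.91e-07). Both were lower in every TRAP library than in any pre-TRAP library. Slc1a3, a glutamate transporter of supporting cells and glia, was lower (-0.92 ± 0.20, adjusted p = 0.00185) with overlapping groups.

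Kölliker's organ, the epithelial ridge beside the prosensory domain, was also divided: 5 of 11 genes were higher and 2 lower, with a median of 0.36 (0.60 without pre-TRAP library 17, 0.59 without libraries 3 and 5). Calb1, a calcium buffer, lay between 65.9 and 99.8 CPM in TRAP (median 82.9) and at 10.4, 8.82, 5.69 and 14.3 CPM in pre-TRAP libraries. Its log2 fold change was 3.13 ± 0.21, adjusted p = 4.16e-08. Fgf10, a ligand of this region and of the ganglion, lay between 69.1 and 175 CPM in TRAP (median 134) and at 22.7, 19.9, 13.4 and 23.7 CPM in pre-TRAP libraries (2.68 ± 0.20, adjusted p = 1.09e-07). No overlap was seen in either gene. Epyc, a small proteoglycan, was lower (-0.98 ± 0.24, adjusted p = 0.00396), and the TRAP value of library 5, 85.9 CPM, passed most pre-TRAP values (72.4, 64.6, 106 and 71.5 CPM). Crabp1, a retinoic acid binder, was lower (-1.14 ± 0.18, adjusted p = 9.17e-05). Dcn, another proteoglycan, lay between 59.0 and 109 CPM in TRAP (median 62.6) and at 63.1, 54.6, 82.5 and 65.6 CPM in pre-TRAP libraries, with overlapping groups, and did not pass the test (0.09 ± 0.17, adjusted p = 0.702).

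General genes of the otic epithelium were mostly higher, 15 of 21 tested (22 listed) with 2 lower and a median of 0.90. Epcam, a cell adhesion molecule of epithelia, lay between 46.0 and 75.1 CPM in TRAP (median 64.1) and at 19.0, 25.1, 21.7 and 17.5 CPM in pre-TRAP libraries (1.62 ± 0.15, adjusted p = 8.26e-07). The groups were separate. Sox9, which cartilage also expresses, was lower (-1.15 ± 0.13, adjusted p = 5.85e-06), and so was Dlx5, a factor of dorsal otic epithelium (-1.53 ± 0.28, adjusted p = 0.000354). Pax2 did not pass the test (-0.28 ± 0.28, adjusted p = 0.472). Genes of epithelial junctions were mostly higher as well: 20 of 27 were higher and 1 lower (2 without library 3 or without 3 and 5), with a median of 0.90. Crb3, which sets apical polarity, was higher (1.90 ± 0.17, adjusted p = 6.05e-07), as was the tight junction protein Cldn9 (1.73 ± 0.26, adjusted p = 8.33e-05). The 1 lower gene was Tjp1 (-0.95 ± 0.23, adjusted p = 0.00412), a scaffold that endothelium and mesenchyme also use.

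Genes of the roof and other non-sensory parts were lower as a group: 11 of the 12 tested (13 listed) fell and none rose, with a median of -1.41. Oc90, an otoconial protein of non-sensory epithelium, lay between 87.0 and 198 CPM in TRAP (median 103) and at 266, 401, 719.6 and 307 CPM in pre-TRAP libraries. Its log2 fold change was -1.70 ± 0.24, adjusted p = 4.2e-05. Otx2, a factor of the roof, lay between 4.47 and 9.88 CPM in TRAP (median 6.50) and at 14.1, 13.7, 14.6 and 14.2 CPM in pre-TRAP libraries (-1.08 ± 0.19, adjusted p = 0.000347). Gata2, a zinc-finger factor, lay between 11.3 and 19.1 CPM in TRAP (median 14.2) and at 46.5, 56.4, 44.3 and 31.8 CPM in pre-TRAP libraries (-1.62 ± 0.16, adjusted p = 1.31e-06). In all of them the highest TRAP library stayed below the lowest pre-TRAP library. Lmx1a was lower (-0.95 ± 0.20, adjusted p = 0.00119), with the highest TRAP and the lowest pre-TRAP value meeting at 15.9 CPM. Kcne1, a potassium channel subunit of the later stria, did not pass the test (-0.92 ± 0.61, adjusted p = 0.252) at levels of at most 0.737 CPM.

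**Figure D2:**
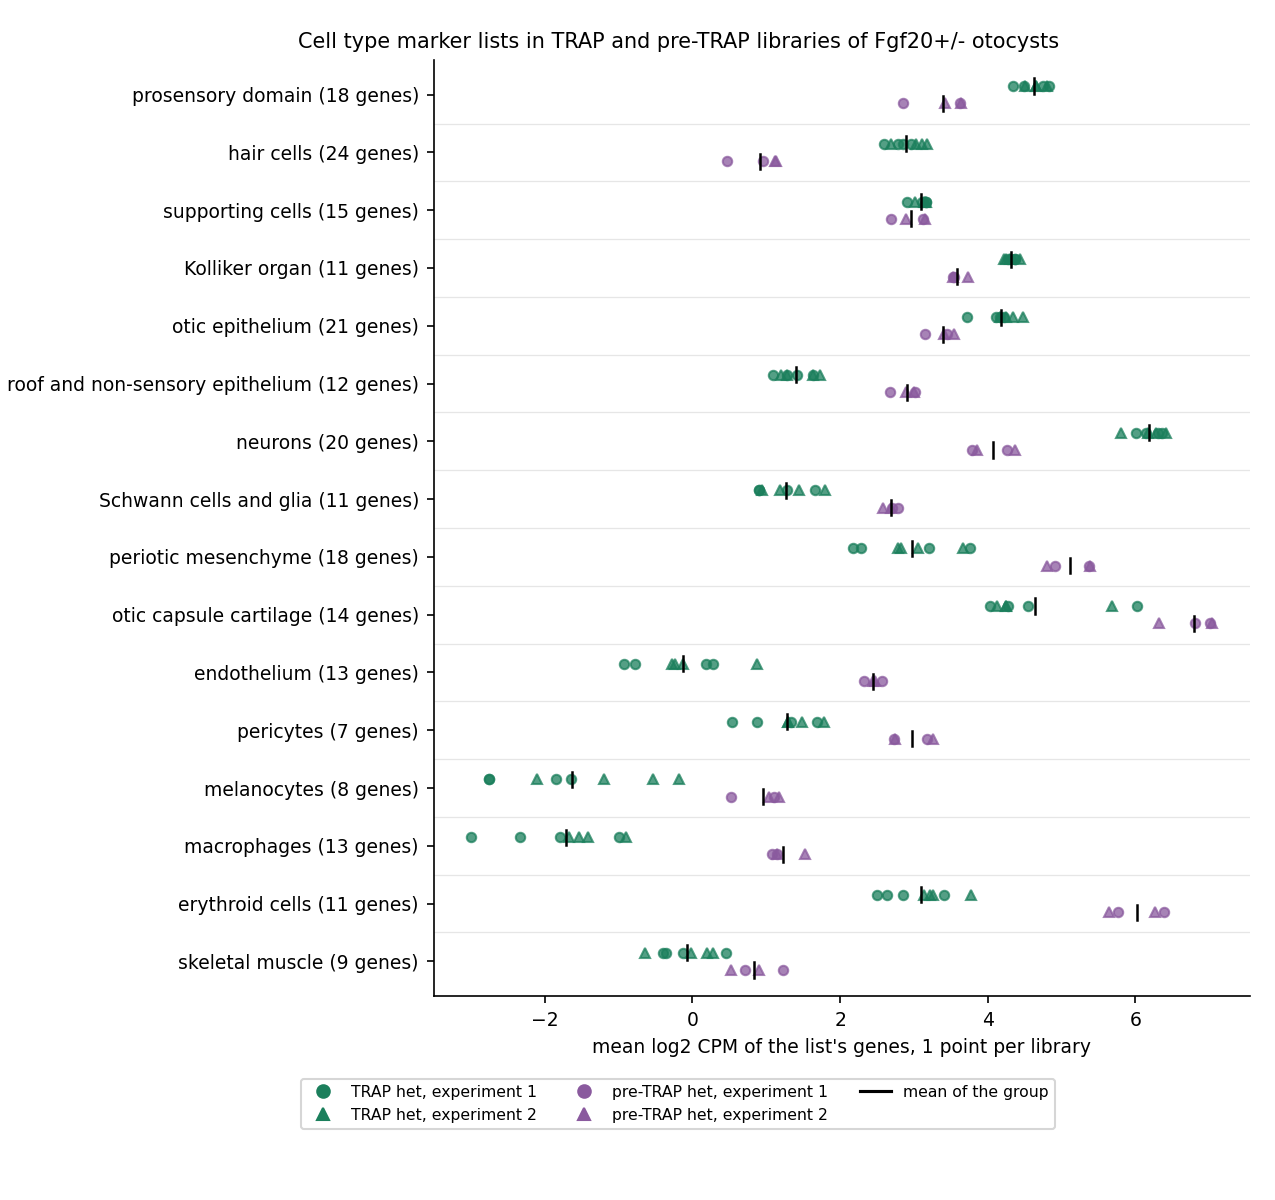
Mean log2 CPM of the genes of each cell type list, with 1 point per library, for the 8 TRAP and 4 pre-TRAP libraries. The prosensory list spans 4.34 to 4.82 in TRAP against 2.86 to 3.64 in pre-TRAP libraries, and the mesenchyme points of TRAP libraries 3 and 5 lie at 3.67 and 3.76.

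Neuronal genes had the highest median of the cell type lists, 2.49, with 17 of 20 higher and none lower. Tubb3, the neuronal tubulin, lay between 476 and 1081 CPM in TRAP (median 726) and at 98.9, 159, 203 and 85.8 CPM in pre-TRAP libraries (2.48 ± 0.17, adjusted p = 5.37e-08). Neurod1, which drives ganglion neuron differentiation, lay between 79.0 and 127 CPM in TRAP (median 97.9) and at 11.0, 12.6, 13.4 and 10.9 CPM in pre-TRAP libraries (3.05 ± 0.18, adjusted p = 1.19e-08). Pou4f1, a factor of sensory neurons, lay between 203 and 569 CPM in TRAP (median 295) and at 33.3, 54.7, 64.2 and 40.8 CPM in pre-TRAP libraries (2.84 ± 0.26, adjusted p = 6.23e-07). Each was higher in all TRAP libraries than in any pre-TRAP library. Snap25, a synaptic vesicle fusion protein, lay between 75.8 and 140.2 CPM in TRAP (median 98.9) and at 15.6, 17.2, 17.7 and 16.2 CPM in pre-TRAP libraries (2.62 ± 0.17, adjusted p = 2.32e-08). Stmn2, a growth cone protein, lay between 470.0 and 1193 CPM in TRAP (median 841) and at 131, 146, 127 and 98 CPM in pre-TRAP libraries (2.73 ± 0.20, adjusted p = 9.69e-08). The summed level of the 20 genes was 3667 to 6962 CPM in TRAP and 715 to 1105 CPM in pre-TRAP libraries. Neurog1, the factor of neuron precursors, was at or near 0 in both groups (highest 0.519 CPM), and Ntrk2, a neurotrophin receptor that glia and mesenchyme also express, did not pass the test (-0.21 ± 0.17, adjusted p = 0.356).

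Glial genes went the other way, with 2 of 11 tested (12 listed) higher (1 without pre-TRAP library 17, 21 or 23), 7 lower and a median of -1.04. Pmp22, a myelin protein, lay between 5.93 and 16.5 CPM in TRAP (median 8.80) and at 64.3, 63.5, 107 and 75.7 CPM in pre-TRAP libraries (-2.99 ± 0.25, adjusted p = 2.78e-07). S100b, a calcium-binding protein of glia and cartilage, lay between 16.2 and 36.5 CPM in TRAP (median 18.7) and at 132, 125, 165 and 110.0 CPM in pre-TRAP libraries (-2.65 ± 0.19, adjusted p = 6.92e-08). Neither overlapped between groups. Sox10, shared by glia and otic epithelium, was higher (1.06 ± 0.24, adjusted p = 0.00261). Of 15 genes of the central nervous system, a list added after values had been seen, 6 were tested, 3 higher (1 without TRAP library 1 or 7 or pre-TRAP library 17 or 21) and 2 lower. Gad1, the enzyme of GABA synthesis, was higher (2.17 ± 0.36, adjusted p = 0.000153) and Zic1 lower (-2.21 ± 0.33, adjusted p = 7.25e-05), and the other 9 did not pass the filter on low counts. Of 15 genes in a list of cranial sensory neuron transcription factors and the receptor gene Ret, also added after values had been seen, 10 were tested, 4 higher and 1 lower, 1 symbol was not matched to the table and 4 did not pass the filter.

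Mesenchyme and cartilage genes were lower in TRAP. Of 18 periotic mesenchyme genes 16 were lower and none higher, with a median of -2.14. Prrx1, a homeodomain factor of mesenchyme, lay between 7.10 and 29.5 CPM in TRAP (median 15.6) and at 168, 146, 94.0 and 127 CPM in pre-TRAP libraries (-3.02 ± 0.28, adjusted p = 6.02e-07). Tbx18, a T-box factor, lay between 6.23 and 20.0 CPM in TRAP (median 12.8) and at 117, 99.2, 79.6 and 65.9 CPM in pre-TRAP libraries (-2.72 ± 0.29, adjusted p = 2.26e-06). Pou3f4, the factor whose loss causes an X-linked deafness, lay between 19.6 and 49.9 CPM in TRAP (median 36) and at 178, 200.2, 190.0 and 117 CPM in pre-TRAP libraries (-2.21 ± 0.21, adjusted p = 9.1e-07). The groups were apart in all of them. Twist1 (-2.47) and Col1a1 (-1.80; -2.67, adjusted p = 9.03e-07 without libraries 3 and 5) were lower too. Lum, a proteoglycan of connective tissue, lay between 54.3 and 162 CPM in TRAP (median 82.9) and at 75.2, 73.6, 155 and 101 CPM in pre-TRAP libraries and did not pass the test (-0.02 ± 0.26, adjusted p = 0.952). Mfap4 was lower (-0.80 ± 0.26, adjusted p = 0.0202), a call that was lost when pre-TRAP library 21 (-0.39, adjusted p = 0.223) or 23 (-0.79, adjusted p = 0.0515) was left out. Without TRAP libraries 3 and 5, 17 of the 18 were lower and the median was -2.59. Collagen genes moved with these libraries. Col3a1 ran from 17.4 to 191 CPM in TRAP (median 30.7) and did not pass the test (-1.21 ± 0.56, adjusted p = 0.0953), but was lower without library 3 (-1.76, adjusted p = 0.0113), without library 5 (-1.79, adjusted p = 0.00765) or without both (-2.31, adjusted p = 8.72e-06).

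In the otic capsule list 11 of 14 genes were lower and none higher, with a median of -1.76 that became -2.48, with all 14 lower, without libraries 3 and 5. Snorc, a small cartilage proteoglycan, lay between 2.95 and 8.94 CPM in TRAP (median 5.03) and at 57.2, 50.3, 54.2 and 30.4 CPM in pre-TRAP libraries (-3.23 ± 0.24, adjusted p = 1.01e-07). Matn1, a cartilage matrilin, lay between 53.1 and 247 CPM in TRAP (median 71.9) and at 579.9, 566, 557 and 394 CPM in pre-TRAP libraries (-2.31 ± 0.34, adjusted p = 6.36e-05). Both were lower in every TRAP library. Col2a1, the main cartilage collagen, ran from 258 to 4053 CPM in TRAP (median 389) and lay at 2231, 2406, 1785 and 839.9 CPM in pre-TRAP libraries. Its groups overlapped and it did not pass the test (-0.90 ± 0.65, adjusted p = 0.287). It was lower without library 5 (-1.70, adjusted p = 0.0153) and without both (-2.30, adjusted p = 6.37e-06). Acan, the core protein of aggrecan, was likewise not called (-1.28 ± 0.76, adjusted p = 0.196) but lower without library 3 (-2.29, adjusted p = 0.0179), library 5 (-2.32, adjusted p = 0.0147) or both (-3.22, adjusted p = 3.85e-07). Col11a1 (-0.83 ± 0.59, adjusted p = 0.29) was lower without library 5 (-1.51, adjusted p = 0.0187) or both (-2.06, adjusted p = 8.29e-06). The part of these 2 libraries' mesenchyme RNA in other values was not tested beyond the leave-out fits.

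Marker RNA of vessels and blood was lower in TRAP. All 13 endothelial genes were lower, with a median of -2.45. Pecam1, an endothelial adhesion molecule, lay between 0.675 and 2.65 CPM in TRAP (median 1.17) and at 6.04, 8.16, 7.37 and 6.15 CPM in pre-TRAP libraries (-2.26 ± 0.32, adjusted p = 4.32e-05). Cdh5, the cadherin of endothelial junctions, lay between 0.314 and 1.61 CPM in TRAP (median 0.694) and at 5.33, 5.92, 4.23 and 3.80 CPM in pre-TRAP libraries (-2.45 ± 0.34, adjusted p = 3.37e-05). Neither overlapped. Of the 8 pericyte genes 7 were tested and 6 were lower, with a median of -1.31 (-1.96 without libraries 3 and 5), Rgs5 among them (-2.71 ± 0.23, adjusted p = 3.13e-07). Of 14 erythroid genes 11 were tested and 10 were lower and none higher (1 higher without libraries 3 and 5), with a median of -3.46, and Hbb-y, the embryonic beta globin of primitive red cells, lay between 41.8 and 149 CPM in TRAP (median 109) and at 380.1, 522, 935 and 793 CPM in pre-TRAP libraries (-2.67 ± 0.27, adjusted p = 1.6e-06). Of 13 macrophage genes 12 were lower, with a median of -2.87. Csf1r, the receptor of macrophage growth factor, lay between 0.0523 and 0.817 CPM in TRAP (median 0.431) and at 2.81, 2.47, 1.27 and 4.39 CPM in pre-TRAP libraries (-2.91 ± 0.39, adjusted p = 2.35e-05). Aif1 lay between 0.0669 and 0.715 CPM in TRAP (median 0.216) and at 2.01, 2.87, 3.05 and 3.09 CPM in pre-TRAP libraries (-3.47 ± 0.40, adjusted p = 5.33e-06). Their TRAP levels were under 1 CPM in every library. Ptprc, the common leukocyte antigen, did not pass the test (-0.70 ± 0.48, adjusted p = 0.27).

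Melanocyte genes were lower in 7 of 8, with a median of -2.59 (-3.20 without libraries 3 and 5). Dct, a pigment enzyme, lay at 359 and 367 CPM in the pre-TRAP libraries of experiment 2 and at 10.5 and 13.2 CPM in those of experiment 1. In TRAP it ran from 33.8 to 65.4 CPM in experiment 2 and from 0.497 to 2.98 CPM in experiment 1, so the groups were apart within each experiment and overlapped over both. The fit with experiment as a covariate gave -3.03 ± 0.31, adjusted p = 1.56e-06. In experiment 2 alone 2 of the 8 genes were lower and in experiment 1 alone 6. Mitf, the melanocyte master factor, was lower (-1.32 ± 0.32, adjusted p = 0.00337). Skeletal muscle genes were mixed, 1 of 9 tested (10 listed) higher and 3 lower (1 without pre-TRAP library 19, 5 without libraries 3 and 5). Actc1, a cardiac actin also made in other tissue, was higher (1.94 ± 0.19, adjusted p = 1.2e-06), and Tnnt3, a fast troponin, lower (-3.39 ± 0.33, adjusted p = 1.2e-06).

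More FGF ligands were higher than lower, and no FGF receptor was higher. Of 18 secreted ligands 14 were tested, 7 higher and 3 lower, with a median of 1.38, whereas of 7 receptors and co-receptors 5 were tested, of which 4 were lower and none were higher, with a median of -1.71. Fgf10 and Fgf5 are given above. Fgf9, a ligand close to Fgf20, lay between 19.1 and 25 CPM in TRAP (median 22.2) and at 11.6, 13.5, 10.5 and 11.6 CPM in pre-TRAP libraries (0.90 ± 0.14, adjusted p = 0.000101). Fgf3, an inducer of the otic placode, lay between 0.591 and 2.75 CPM in TRAP (median 1.45) and at 0.198, 0.256, 0.192 and 0.142 CPM in pre-TRAP libraries (2.90 ± 0.38, adjusted p = 1.79e-05). Fgf17 lay between 0.469 and 1.46 CPM in TRAP (median 0.784) and at 0.113, 0.0284, 0.264 and 0.283 CPM in pre-TRAP libraries (2.26 ± 0.49, adjusted p = 0.00167). None of them overlapped between groups. Fgf8, made by inner hair cells, was higher (2.59 ± 0.76, adjusted p = 0.0119) at levels of at most 0.980 CPM. The lower ligands were Fgf2 (-1.63 ± 0.26, adjusted p = 0.000121), Fgf7, a mesenchymal ligand (-1.28 ± 0.28, adjusted p = 0.00187), and Fgf18, made by mesenchyme around cartilage (-1.56 ± 0.31, adjusted p = 0.000872). Of the receptors, Fgfr1, which mediates the Fgf20 signal in the prosensory domain, lay between 14.9 and 28.4 CPM in TRAP (median 23.7) and at 63.0, 67.5, 50.1 and 41.2 CPM in pre-TRAP libraries (-1.22 ± 0.18, adjusted p = 5.44e-05). Fgfr2 lay between 3.58 and 14.5 CPM in TRAP (median 6.98) and at 39.7, 35.9, 30.2 and 25.5 CPM in pre-TRAP libraries (-2.06 ± 0.30, adjusted p = 5.1e-05). Fgfr4 lay between 0.669 and 1.70 CPM in TRAP (median 0.854) and at 5.44, 4.98, 4.66 and 3.94 CPM in pre-TRAP libraries (-2.17 ± 0.27, adjusted p = 1.05e-05). All TRAP libraries were below all pre-TRAP libraries for these 3. Fgfrl1, a receptor without a kinase domain, missed the threshold (-0.52 ± 0.23, adjusted p = 0.0772) and passed it when TRAP library 9 (-0.63, adjusted p = 0.0339) or pre-TRAP library 23 (-0.72, adjusted p = 0.0197) was left out.

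Genes that respond to FGF and ERK signalling were split, with 5 of 20 higher, 8 lower and a median of -0.12 (-0.19 to 0.00 with 1 library left out). Etv4, an ETS factor induced by FGF, was higher: it lay between 23.5 and 39.9 CPM in TRAP (median 32.8) and at 19.7, 12.7, 8.24 and 19.2 CPM in pre-TRAP libraries (1.14 ± 0.20, adjusted p = 0.000261). Etv5, of the same subfamily, lay between 52.0 and 89.4 CPM in TRAP (median 68.9) and at 71.1, 76.6, 66.6 and 77.7 CPM in pre-TRAP libraries and did not pass the test (-0.03 ± 0.15, adjusted p = 0.905), while Etv1 was lower (-0.91 ± 0.15, adjusted p = 0.000117). Spry1, an inhibitor of the pathway, was higher (1.08 ± 0.19, adjusted p = 0.000303), and its relative Spry4 lower (-0.78 ± 0.16, adjusted p = 0.000958). Dusp4, an ERK phosphatase, was higher (1.63 ± 0.31, adjusted p = 0.000518). Egr1, an immediate early gene, lay between 0.467 and 1.61 CPM in TRAP (median 1.24) and at 8.08, 6.86, 7.25 and 5.44 CPM in pre-TRAP libraries (-2.57 ± 0.25, adjusted p = 1.05e-06). Of 14 immediate early and heat shock genes 13 were tested, and 1 was higher (2 without pre-TRAP library 19) and 5 lower.

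**Figure D3:**
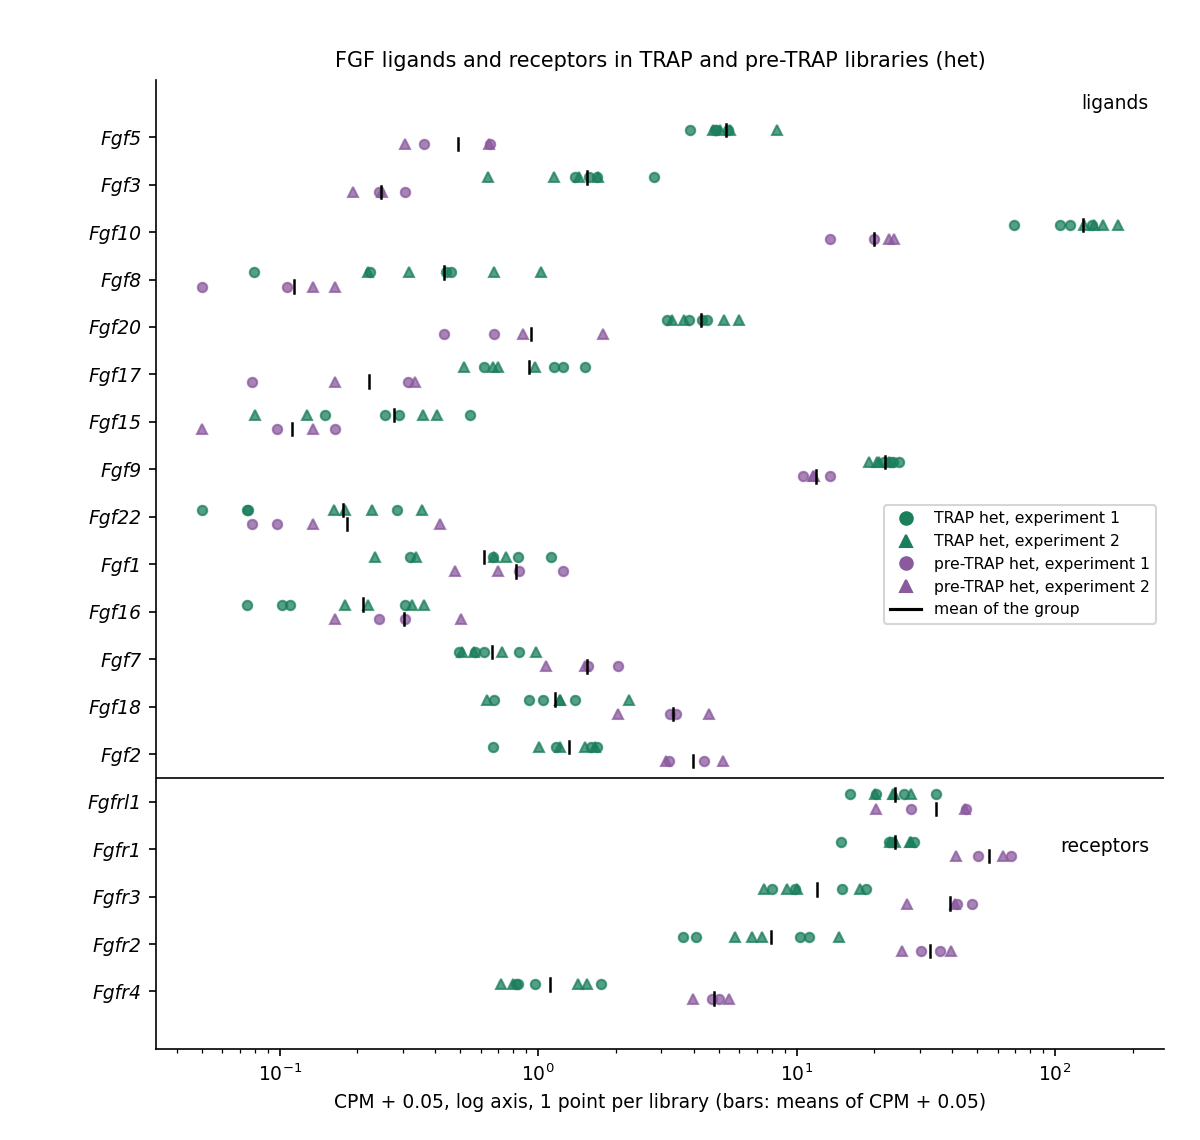
CPM plus 0.05 on a log axis of FGF ligands and receptors, with 1 point per library and bars at the group means. Fgf10 reaches 175 CPM in TRAP against at most 23.7 in pre-TRAP libraries, and Fgfr2 at most 14.5 in TRAP against at least 25.5 in pre-TRAP libraries.

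Notch pathway genes went both ways. Of 12 ligands, receptors and Fringe enzymes 6 were higher and 2 lower, with a median of 0.61. In experiment 1 alone 1 was higher and in experiment 2 alone 2, with 2 lower in each. Dll1, a ligand of nascent hair cells, lay between 0.446 and 1.04 CPM in TRAP (median 0.755) and at 0.425, 0.199, 0.312 and 0.340 CPM in pre-TRAP libraries (1.2 ± 0.35, adjusted p = 0.0122). Dll4, a ligand of endothelial tip cells, lay between 0.0770 and 0.398 CPM in TRAP (median 0.191) and at 0.766, 0.910, 1.06 and 1.36 CPM in pre-TRAP libraries (-2.38 ± 0.37, adjusted p = 0.000109). The receptor Notch2 was lower (-1.61 ± 0.25, adjusted p = 8.9e-05) and Notch1 did not pass the test (-0.23 ± 0.23, adjusted p = 0.469). Of 11 Notch effectors 10 were tested, and 4 were higher and 2 lower, with a median of 0.63 (0.54 to 1.08 with 1 library left out). Hey1 lay between 32.6 and 69.7 CPM in TRAP (median 65.4) and at 20.7, 18.9, 11.5 and 24.5 CPM in pre-TRAP libraries (1.70 ± 0.21, adjusted p = 1.06e-05), and Hes6, which counteracts Hes1, was higher (1.32 ± 0.25, adjusted p = 0.000577). Heyl, expressed in vessel walls, was lower (-1.01 ± 0.18, adjusted p = 0.000253). Dll1 and Hes6 are also in the hair cell list and Hey1 in the prosensory list, so the Notch counts are not separate from those above.

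Wnt receptors and feedback genes were lower in 16 of 32 and higher in none, with a median of -0.68 (-0.39 without pre-TRAP library 19). Lef1, a transcription factor and target of the pathway, lay between 7.21 and 21.0 CPM in TRAP (median 13.0) and at 100.1, 101, 88.2 and 95.5 CPM in pre-TRAP libraries (-2.81 ± 0.25, adjusted p = 4.43e-07). Dkk2, a secreted regulator, lay between 0.889 and 4.25 CPM in TRAP (median 2.04) and at 12.1, 12.7, 12.2 and 10.5 CPM in pre-TRAP libraries (-2.56 ± 0.32, adjusted p = 1.08e-05). The groups were apart in both. Axin2, the usual readout of Wnt activity, did not pass the test (-0.39 ± 0.16, adjusted p = 0.0662). Of 19 Wnt ligands 11 were tested, and 3 were higher and 5 lower (the lower count was 3 without TRAP library 5, 3 without 12, 2 without pre-TRAP library 17 and 3 without 19, and 3 without libraries 3 and 5). Wnt3 (2.44 ± 0.29, adjusted p = 7.33e-06), Wnt7a (1.84 ± 0.26, adjusted p = 3.66e-05) and Wnt7b (1.6 ± 0.36, adjusted p = 0.00198) were the higher ones, and Wnt11 (-1.98 ± 0.39, adjusted p = 0.00081) was among the lower. Wnt5a, which acts in planar polarity, did not pass the test (-0.07 ± 0.14, adjusted p = 0.734).

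BMP ligands, receptors and antagonists were lower in 12 of 17 and higher in 1, with a median of -1.15. Bmp4, made by the outer sulcus beside the prosensory domain, lay between 3.66 and 8.05 CPM in TRAP (median 6.18) and at 24.2, 19.7, 19.0 and 19.0 CPM in pre-TRAP libraries (-1.73 ± 0.17, adjusted p = 1.61e-06). Bmp2 (-1.97) and Bmp5 (-2.55) were lower and Bmp7 did not pass the test (-0.19 ± 0.15, adjusted p = 0.326). The 1 higher gene was the antagonist Chrdl1, which lay between 20.1 and 35.5 CPM in TRAP (median 26.1) and at 12.1, 10.0, 9.66 and 7.34 CPM in pre-TRAP libraries (1.44 ± 0.19, adjusted p = 1.89e-05). In the Hedgehog pathway 2 of 13 genes were higher (1 without TRAP library 7, 9 or 11 or pre-TRAP library 17, 21 or 23) and 6 lower. Shh, the ligand made by spiral ganglion neurons, lay between 0.745 and 3.63 CPM in TRAP (median 1.48) and at 0.0851, 0.427, 0.120 and 0.113 CPM in pre-TRAP libraries (3.33 ± 0.57, adjusted p = 0.000232; without pre-TRAP library 19, 4.18, adjusted p = 0.000108). The pathway's target Gli1 was lower (-1.05 ± 0.17, adjusted p = 0.000134), as was the ligand binder Hhip (-2.06 ± 0.27, adjusted p = 1.84e-05), whereas Ptch1, receptor and target, did not pass the test (-0.16 ± 0.23, adjusted p = 0.622).

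Extracellular matrix genes were divided. Of 12 genes of the tectorial and otolithic membranes 10 were tested, and 5 were higher and 4 lower, with a median of 0.48. Tectb, beta-tectorin, lay between 227 and 314 CPM in TRAP (median 272) and at 30.9, 44.2, 51.9 and 26.5 CPM in pre-TRAP libraries (2.89 ± 0.18, adjusted p = 2.07e-08). Tecta, alpha-tectorin, lay between 120.0 and 190.4 CPM in TRAP (median 156) and at 34.6, 41.6, 38.5 and 27.3 CPM in pre-TRAP libraries (2.10 ± 0.17, adjusted p = 1.63e-07). Otoa, which anchors the tectorial membrane, was higher (1.56 ± 0.22, adjusted p = 3.97e-05), as were Otol1, otolin (1.41 ± 0.19, adjusted p = 2.8e-05), and Otog, otogelin (0.86 ± 0.21, adjusted p = 0.00356). Otogl did not pass the test (0.09 ± 0.16, adjusted p = 0.685). Zpld1, a matrix protein of the cupula, lay between 0.0519 and 0.770 CPM in TRAP (median 0.384) and at 3.46, 4.32, 5.88 and 2.13 CPM in pre-TRAP libraries (-3.18 ± 0.37, adjusted p = 6.38e-06). Basement membrane genes were lower in 10 of 20 tested, of 21 listed (13 without libraries 3 and 5) and higher in none, with a median of -1.11. Nid1, nidogen, was lower (-2.31 ± 0.35, adjusted p = 7.24e-05), and Lama5, a laminin chain of epithelial basement membranes, did not pass the test (-0.10 ± 0.25, adjusted p = 0.771).

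Cell cycle genes were lower on tagged ribosomes than in the whole tissue, 18 of 26 with none higher (10 lower without pre-TRAP library 21) and a median of -0.63. At least 2-fold lower were 3 of the 26. In experiment 1 alone 10 of 26 were lower and in experiment 2 alone 4. Mki67, a marker of dividing cells, lay between 21.0 and 57.1 CPM in TRAP (median 22.7) and at 79.6, 78.6, 68.1 and 50.9 CPM in pre-TRAP libraries (-1.14 ± 0.27, adjusted p = 0.00315). The highest TRAP value overlapped pre-TRAP library 23. Plk1, a mitotic kinase, was lower (-0.86 ± 0.14, adjusted p = 0.000166), as was Ccne1, cyclin E1 (-1.18 ± 0.19, adjusted p = 0.000149). Pcna did not pass the test (-0.09 ± 0.18, adjusted p = 0.719). Of 10 cyclin-dependent kinase inhibitors and D cyclins 9 were tested, and 2 were higher (4 without pre-TRAP library 19) and 4 lower, with a median of -0.09 (-0.31 to 0.30 with 1 library left out). Ccnd2, cyclin D2, lay between 58.9 and 159.5 CPM in TRAP (median 82.3) and at 623, 647, 587 and 542 CPM in pre-TRAP libraries (-2.73 ± 0.23, adjusted p = 2.63e-07). Ccnd3 was lower (-1.76 ± 0.15, adjusted p = 3.74e-07). Cdkn1c, the inhibitor p57, was lower (-1.54 ± 0.20, adjusted p = 2.27e-05), and Cdkn1a, the inhibitor p21, higher (0.84 ± 0.19, adjusted p = 0.002), both with overlapping groups.

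RNA made in mitochondria, which cytosolic ribosomes do not translate, had the lowest median of the lists. Of 37 mitochondrially encoded genes 22 were tested, 21 of them lower and none higher, with a median of -5.27. Their share of all counts was 0.00643% to 0.0475% in TRAP and 0.730% to 1.000% in pre-TRAP libraries. Transcripts of mt-Atp6, a subunit of ATP synthase, lay between 6.46 and 22.0 CPM in TRAP (median 13.2) and at 1272, 1027, 1287 and 993 CPM in pre-TRAP libraries (-6.45 ± 0.30, adjusted p = 1.59e-09). Those of mt-Nd2, a subunit of complex I, lay between 1.41 and 4.46 CPM in TRAP (median 2.40) and at 271, 186, 178 and 193 CPM in pre-TRAP libraries (-6.28 ± 0.27, adjusted p = 9.15e-10). mt-Rnr2, the large ribosomal RNA of mitochondria, lay between 6.19 and 35 CPM in TRAP (median 18.7) and at 992, 864, 1162 and 814 CPM in pre-TRAP libraries (-5.75 ± 0.41, adjusted p = 6.33e-08). The smallest pre-TRAP level was many times the highest TRAP level for each. Nuclear copies of mitochondrial genes could share reads with them, so single values are uncertain. Subunits of the same respiratory chain encoded in the nucleus went the other way: 42 of 77 tested (81 listed) were higher and 1 lower, with a median of 0.48. Ndufb6, of complex I, lay between 103 and 144 CPM in TRAP (median 126) and at 64.2, 53.0, 50.1 and 77.2 CPM in pre-TRAP libraries (1.02 ± 0.15, adjusted p = 6.22e-05). Cox7a1, of cytochrome oxidase, lay between 2.17 and 5.33 CPM in TRAP (median 4.58) and at 0.992, 1.22, 1.03 and 1.22 CPM in pre-TRAP libraries (1.95 ± 0.25, adjusted p = 1.51e-05). Uqcr11, of complex III, lay between 341 and 543 CPM in TRAP (median 433) and at 219, 241, 252 and 226 CPM in pre-TRAP libraries (0.91 ± 0.15, adjusted p = 0.000208). Without libraries 3 and 5, 53 of them were higher, and in experiments 1 and 2 alone 9 and 21. The 1 lower gene was Ndufa4l2, a pericyte marker (-2.17 ± 0.32, adjusted p = 5.45e-05).

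Long RNAs of the nucleus were also depleted. Of 12 nuclear non-coding RNAs 9 were lower and 1 higher, with a median of -1.69. Malat1, a nuclear speckle RNA, lay between 47.1 and 198 CPM in TRAP (median 78.8) and at 2319, 3902, 2047 and 1441 CPM in pre-TRAP libraries (-4.63 ± 0.31, adjusted p = 4.01e-08). Neat1, the scaffold of paraspeckles, lay between 0.199 and 1.71 CPM in TRAP (median 0.785) and at 4.14, 5.35, 5.98 and 5.16 CPM in pre-TRAP libraries (-2.93 ± 0.39, adjusted p = 2.11e-05). Kcnq1ot1, which silences an imprinted cluster, lay between 4.32 and 13.8 CPM in TRAP (median 6.11) and at 40.8, 43.9, 32.2 and 31.7 CPM in pre-TRAP libraries (-2.32 ± 0.26, adjusted p = 4.08e-06). The groups stood apart for all of them. Meg3 was lower (-1.67 ± 0.30, adjusted p = 0.000394), Tug1 did not pass the test (-0.24 ± 0.21, adjusted p = 0.394), and the 1 higher RNA was Peg13 (1.53 ± 0.19, adjusted p = 1.27e-05). Of 13 cytoplasmic or small nucleolar RNA host transcripts 9 were tested, and 1 was higher and 1 lower, with a median of -0.25. The higher call was lost without TRAP library 1, 9 or 11 or pre-TRAP library 17, 21 or 23, and 3 were lower without TRAP library 5 or without 3 and 5. H19, an imprinted RNA of mesenchyme, lay between 241 and 819 CPM in TRAP (median 492) and at 4186, 4964, 1712 and 1795 CPM in pre-TRAP libraries (-2.60 ± 0.32, adjusted p = 1.05e-05). Snhg1 did not pass the test (0.03 ± 0.17, adjusted p = 0.892). By annotated class, 21.1% of 1257 long non-coding RNAs were higher and 20.3% lower, against 20.7% and 25.5% of 14841 protein-coding genes and 9.63% and 8.59% of 4017 pseudogenes.

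Ribosomal protein genes had small fold changes, below 0 in 80 of 83 tested (84 listed), with a median of -0.39. Of the 83, 24 were called lower and none higher. The lower count lies near the share of all genes tested (22.5% lower, 17.4% higher) and of protein-coding genes (25.5% lower). In experiment 1 alone 4 of 82 were lower and in experiment 2 alone 16 of 83. Without libraries 3 and 5, 44 were lower, without library 5 alone 49, and 14 without pre-TRAP library 17. Rpsa, of the small subunit, lay between 793 and 1450.3 CPM in TRAP (median 990.2) and at 2059, 2558, 2813 and 1714 CPM in pre-TRAP libraries (-1.15 ± 0.14, adjusted p = 8.55e-06). Rpl12, of the large subunit, lay between 255 and 473 CPM in TRAP (median 338) and at 645, 662, 539 and 533 CPM in pre-TRAP libraries (-0.73 ± 0.16, adjusted p = 0.00164). The groups were apart in both. Rplp0, of the ribosomal stalk, was lower (-1.07 ± 0.17, adjusted p = 0.000105), with TRAP library 5 highest at 2461 CPM. Rpl10a, the gene of the tagged protein L10a, was lower (-0.46 ± 0.17, adjusted p = 0.0364), a call lost when TRAP library 3, 7, 9, 11, 12 or 15 or pre-TRAP library 17, 21 or 23 was left out (adjusted p of 0.0532 to 0.149). Processed pseudogenes could share reads with ribosomal protein genes. Reads of the L10a-eGFP transcript could be counted as Rpl10a, which was not tested. Of 16 translation factors and related genes of the same start class, 9 were lower and none higher, with a median of -0.44: Pabpc1, the poly(A) binding protein, lay between 201 and 386 CPM in TRAP (median 293) and at 817, 836, 402 and 467 CPM in pre-TRAP libraries (-1.13 ± 0.21, adjusted p = 0.000484), Eef2 was lower (-0.69 ± 0.15, adjusted p = 0.00129) and Eef1a1 did not pass the test (-0.21 ± 0.12, adjusted p = 0.203). In each experiment alone 3 of these 16 genes were lower.

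Such genes are known for a run of pyrimidines at the start of their RNA, and the windows of 30 bases around the annotated RefSeq start (GRCm38.p6) are shown for a member with such a run and one without. Capitals mark an unbroken run of at least 6 C or T bases, searched on the sense strand from 5 bases before to 12 bases after the start. Rpl12 is at chr2:32961697-32961726 and Rpsa at chr9:120127751-120127780, both on the plus strand.
Rpl12: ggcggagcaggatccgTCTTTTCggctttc
Rpsa: gtgggttatttaaggacgtcatttccggcc
A run was found in 30 of 76 promoters of the ribosomal protein list (39.5%), in 40.0% of the 10 promoters of the translation factor list, in 18.3% of the 71 promoters of the respiratory chain list and in 14.7% of all promoters. No run in a window says only that these letters are not there, and an annotated start can differ from the start used.

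**Figure D4:**
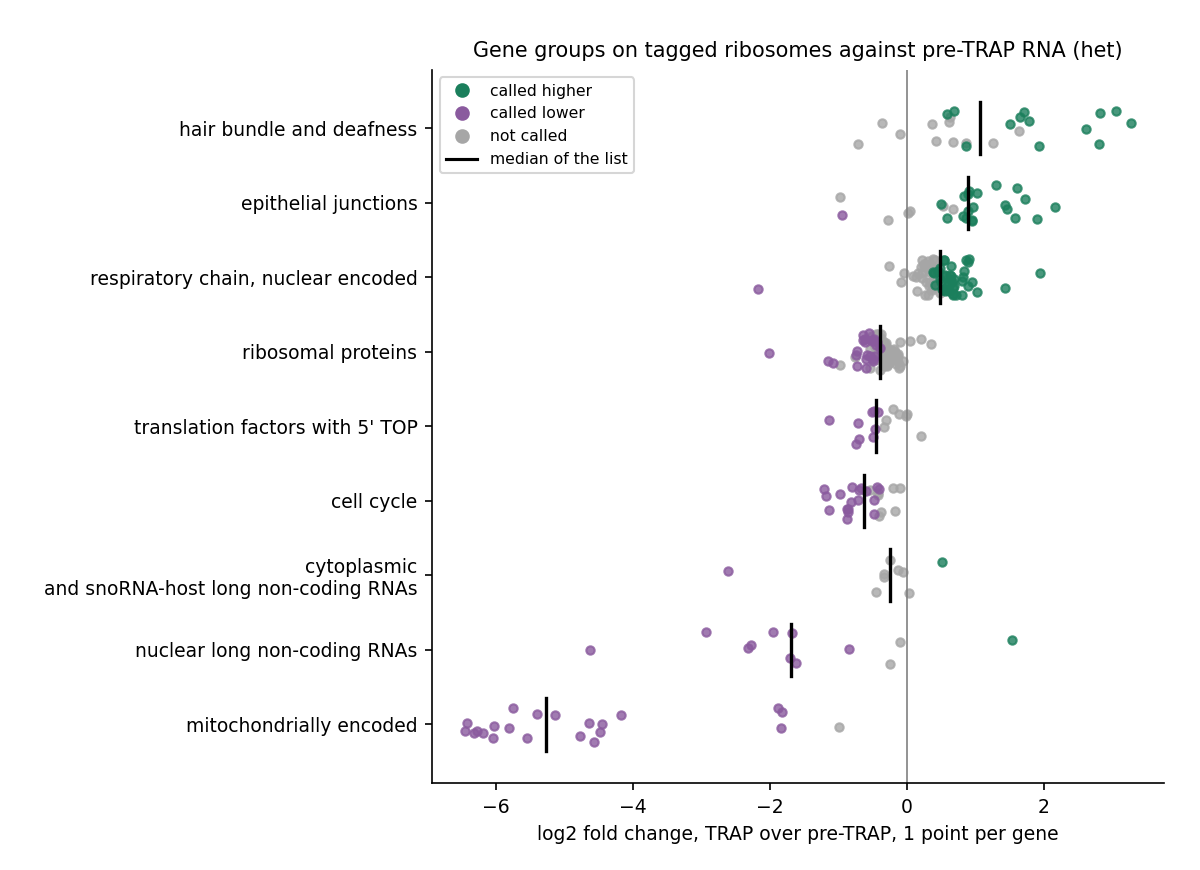
Log2 fold change (TRAP over pre-TRAP) with 1 point per gene tested, for pathway and RNA class lists, with colours for called higher, called lower and not called and a bar at the list's median. The mitochondrially encoded list has its median at -5.27, ribosomal proteins at -0.39 and nuclear-encoded respiratory subunits at 0.48.

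The difference between TRAP and pre-TRAP RNA was compared between the 2 experiments by an interaction term. No gene of 23201 passed (0%, edgeR), with 392 at an unadjusted p under 0.05, and DESeq2 called 4. In simulated counts this test missed nearly all 4-fold differences, so a count of 0 does not show that the experiments did not differ. Medians of the lists in experiments 1 and 2 were 1.34 and 1.25 for prosensory, 2.59 and 2.43 for neuronal, and -2.26 and -1.97 for mesenchyme genes. Over the genes kept by the filter on all 12 libraries, 6 of the 40 lists had medians more than 0.5 apart: erythroid (-3.70 and -2.41), melanocyte (-2.96 and -1.76), supporting cell (0.57 and -0.05), Wnt ligand (-0.22 and -0.78), cyclin-dependent kinase inhibitor and D cyclin (0.32 and -0.72) and mitochondrially encoded genes (-5.60 and -5.08). The signs for supporting cells and for the inhibitors and cyclins depended on that filter. With the filter applied within each experiment, the medians were 0.54 and 0.06 for supporting cells and -0.37 and -0.68 for the inhibitors and cyclins. For Wnt ligands they were then -0.23 and -0.004. These gaps between list medians were not tested. Whether the difference depends on genotype was tested over all 24 libraries. No gene of 24242 passed (0%, edgeR), with 302 at an unadjusted p under 0.05 and none by DESeq2. In simulated counts this test missed many 4-fold and most 2-fold differences. Nothing here is called particular to heterozygotes. In Fgf20-/- libraries, which share none with the heterozygous ones, the medians were 1.46 for prosensory, 2.42 for hair cell, 2.54 for neuronal and -2.04 for mesenchyme genes, beside 1.30, 2.06, 2.49 and -2.14 in heterozygotes. The Fgf20-/- medians come from the fit of all 24 libraries, which estimates spread and the experiment term over both genotypes. Those of heterozygotes come from the fit of their own 12 libraries. Between these unlike fits, the medians were more than 0.5 apart for 5 of the 40 lists, at -0.72 against -1.41 in heterozygotes for the roof and non-sensory list, -1.67 against -1.04 for glia, 0.59 against 0.06 for supporting cells, 0.20 against -0.74 for Wnt ligands and -1.10 against -1.69 for nuclear non-coding RNAs, gaps that were not tested. In the fit of all 24 libraries the heterozygous median of supporting cells was 0.13, which puts that gap under 0.5. Those of the roof list and glia were -1.42 and -1.04 there. Of 9250 genes called in heterozygotes 9233 had the same sign in Fgf20-/- embryos. Across the 24242 genes the fold changes of the 2 genotypes had a Pearson's r of 0.912, a description over genes, which are not independent replicates.

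**Figure D5:**
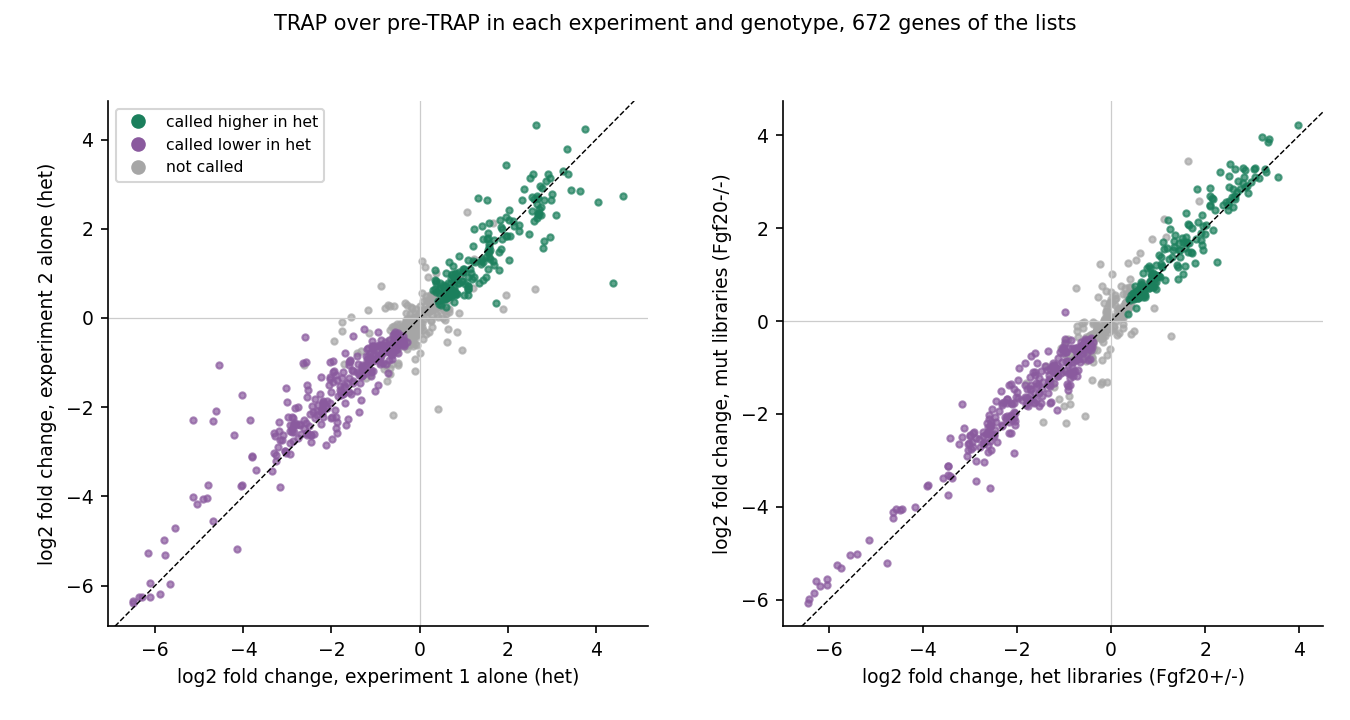
Log2 fold change (TRAP over pre-TRAP) of 672 genes of the lists, experiment 1 against experiment 2 and Fgf20+/- against Fgf20-/-, with 1 point per gene and the dashed line at equality. Points called higher and called lower in heterozygotes lie mostly on the same side of 0 on both axes, as for Fgf20 with 2.95 in experiment 1 and 1.82 in experiment 2.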

How the data were processed

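Poly(A) RNA of TRAP and pre-TRAP samples was made into cDNA libraries with the Clontech SMARTer kit after Arcturus Picopure purification, per the labels' protocols. The authors deposited raw read counts per Ensembl gene in 1 table of 53946 genes and 24 libraries. STAR, DESeq2 and the GRCm38.p5 build are listed, per the submitters' processing notes, without versions or roles. For the counting tool and its strand setting, a statement is not given in the sources used here. Of the genes, 12469 had no count in any of the 12 heterozygous libraries and 53274 were matched to a symbol.

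The 8 TRAP and 4 pre-TRAP heterozygous libraries were grouped by their labels and compared with edgeR 4.0.16 in R 4.3.3 (glmQLFit and glmQLFTest): TMM scaling, the filterByExpr filter with a minimum count of 10, experiment as a covariate, no pairing, and Benjamini-Hochberg adjustment over the 23201 genes kept, with calls at an adjusted p under 0.05. The SE of a fold change is its size divided by the square root of F. CPM used TMM-scaled library sizes; list levels are means of log2 CPM with a prior count of 0.5. Interactions of method with experiment (12 libraries) and with genotype (24 libraries) used the same test. Genes named as rises and falls were the 15 largest each way among called protein-coding genes with a mean of at least 5 CPM in the higher group, 1 sign in both experiments and no overlap between groups. Mitochondrially encoded genes had no class in the RefSeq table and are described only as a list. Members and gene lists, 38 plus 2 added after values were seen, were chosen with earlier results of these data known, so their counts are described beside those of all genes, without a set test. Some genes are in more than 1 list, so the lists are not independent of each other.

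Library totals of 30700000 to 50600000 counts and pools of 3 to 7 embryos set the precision. No 2 libraries of a group agreed within sampling noise. The fits were tested on simulated counts with known changes: the comparison of TRAP with pre-TRAP recovered most 4-fold, a minority of 2-fold and few 1.5-fold changes, and the interaction tests recovered fewer. Far fewer genes were changed there than were called in the data. The Benjamini-Hochberg threshold depends on that share, so these recoveries do not describe the real comparison of TRAP with pre-TRAP. Alternatives were another scaling, no filter, DESeq2 1.42.0, limma 3.58.1 (voom), no covariate, each experiment alone, all 24 libraries, TMM without mitochondrial and erythroid genes, and leaving out libraries. A description by protein length is not given; protein sequences were not used here. Promoter sequences and RNA classes come from RefSeq (GRCm38.p6); 20425 tested genes were matched to a class.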

Additional observations from a re-analysis of the deposited data

Results flagged for a closer look

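In these results the highest or lowest library of a group stood far from the others: its gap to the nearest library, divided by the range of the group, exceeded Dixon's 95% critical value for its 8 or 4 libraries. For normally distributed values chance gives about 1 in 20 groups. Among 198 genes looked at it occurred for 27 in TRAP and 10 in pre-TRAP libraries, and among 40 gene lists for 2 in each. Genes were taken as CPM without a log, over libraries of 2 experiments, so that rate need not hold. Whether the counts exceed what chance would give was not tested. For the Kölliker's organ list, pre-TRAP library 17 was highest, at a mean log2 CPM of 3.74 against 3.54 in the nearest library (gap 0.94 of the range). For the macrophage list, pre-TRAP library 23 was highest, at a mean log2 CPM of 1.52 against 1.15 in the nearest library (gap 0.831 of the range). For the tectorial and otolithic matrix list, TRAP library 1 was lowest, at a mean log2 CPM of 4.5 against 4.91 in the nearest library (gap 0.581 of the range). For the ribosomal protein list, TRAP library 5 was highest, at a mean log2 CPM of 9.78 against 9.32 in the nearest library (gap 0.531 of the range).

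TRAP library 5 was highest for Uts2b (60.4 against 33.1 CPM, gap 0.654), Gimap6 (1.88 against 1.10 CPM, gap 0.554), Fabp7 (25.5 against 13.9 CPM, gap 0.595), Epyc (85.9 against 49.6 CPM, gap 0.588), S100b (36.5 against 23.7 CPM, gap 0.63), Col2a1 (4053 against 1919 CPM, gap 0.562), Aif1 (0.715 against 0.337 CPM, gap 0.583), Rpsa (1450.3 against 1059.5 CPM, gap 0.595), Rplp0 (2461 against 1727 CPM, gap 0.636) and Rpl10a (1000.0 against 648 CPM, gap 0.696). For Arl5c (1.04 against 0.558 CPM, gap 0.6), Dlx5 (2.37 against 1.38 CPM, gap 0.537), Lmx1a (15.9 against 10.3 CPM, gap 0.619), Fgf18 (2.20 against 1.34 CPM, gap 0.53) and Notch2 (22.3 against 12.1 CPM, gap 0.622), TRAP library 3 was the highest. The highest level was in TRAP library 1 for Pax2 (3.92 against 2.05 CPM, gap 0.797), Neurog1 (0.519 against 0.184 CPM, gap 0.646) and Ptprc (2.10 against 0.759 CPM, gap 0.647). TRAP library 11 was highest for Cdhr1 (21.5 against 11.6 CPM, gap 0.623), Msc (46.8 against 32.3 CPM, gap 0.59) and Fgf5 (8.36 against 5.48 CPM, gap 0.634). For Stmn3 (286 against 412 CPM, gap 0.553) and Cox7a1 (2.17 against 4.08 CPM, gap 0.605), TRAP library 3 was the lowest. The lowest level was in TRAP library 5 for Hey1 (32.6 against 53.7 CPM, gap 0.57). TRAP library 9 was highest for Ptch1 (29.0 against 18.5 CPM, gap 0.675). For Cldn9 (257 against 168 CPM, gap 0.585), TRAP library 12 was the highest. The lowest level was in TRAP library 12 for Fgfr1 (14.9 against 22.7 CPM, gap 0.578). Pre-TRAP library 17 was highest for Myo7a (7.43 against 5.97 CPM, gap 0.899), Bmp4 (24.2 against 19.7 CPM, gap 0.877), Hhip (11.5 against 8.16 CPM, gap 0.87) and mt-Nd2 (271 against 193 CPM, gap 0.837). For Gfi1 (0.340 against 0.240 CPM, gap 0.882), Lhx3 (0.454 against 0.0480 CPM, gap 0.954) and Tug1 (209 against 134 CPM, gap 0.895), pre-TRAP library 23 was the highest. The highest level was in pre-TRAP library 19 for Shh (0.427 against 0.120 CPM, gap 0.897). Pre-TRAP library 21 was highest for Rpl10a (1063 against 810.3 CPM, gap 0.851). For Matn1 (394 against 557 CPM, gap 0.879), pre-TRAP library 23 was the lowest. Many of the TRAP cases fell in libraries 3 and 5, which also had the most mesenchyme RNA, and values without these libraries are given in the report where they change a call.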

How the results depend on the processing

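The number of genes called depended on the test: 5268 were higher and 6929 lower by limma voom, and 4639 and 5274 by DESeq2. Without the experiment covariate 3473 were higher and 4687 lower. With no filter on low counts 4226 of 41477 genes were at least 2-fold lower. With each experiment alone fewer genes were called: 1797 higher and 2852 lower in experiment 1, and 2155 higher and 2517 lower in experiment 2, of which 1992 were at least 2-fold lower, with fewer libraries in each fit. Leaving out 1 library gave 3396 to 4459 genes higher and 4150 to 5401 lower, and at least 2-fold 2054 to 2287 higher and 2960 to 3423 lower. The share of higher genes among those called was 43.7% and ran from 38.7% (experiment 1 alone) to 48.2%. The interaction of method with experiment stayed at 0 genes with 1 library left out, but was 19 with no filter on low counts and 4 by DESeq2. The interaction with genotype was 0 with 1 library left out and 1 with no filter. The cause of these changes was not tested. No called direction reversed, and 165 of the 198 genes named or considered kept their side of the threshold under every alternative. Of 878 list medians 60 moved by more than the spread between replicates. No paired analysis was possible because the labels match no TRAP sample with a pre-TRAP sample and the groups share no library number. Fold changes of genes with few counts are the least precise, and every fold change rests on 4 pre-TRAP libraries.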
